A study of Mus musculus with 6 samples.

Results

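Neutrophil marker genes, 10 in all, were followed in the livers of ethanol-fed mice with and without hepatocyte ACSS2. They were the calprotectin genes S100a8 and S100a9, the resistin-like gene Retnlg, the receptor genes Cxcr2 and Csf3r, the specific granule genes Ngp, Camp and Ltf, and the metalloproteinase genes Mmp8 and Mmp9. Members were taken by gene symbol from a list of neutrophil markers, and all 10 were among the 16135 genes of the deposited table. ACSS2 is the enzyme that makes acetyl-CoA from acetate outside mitochondria. The compared groups were ACSS2-HKO, described by the series as hepatocyte-specific knockout mice, and ACSS2-flox, whose Acss2 gene is floxed by that name (n = 3 libraries each, whole liver). Both had taken the Lieber-DeCarli ethanol liquid diet over 10 days, with 1 ethanol binge added. The labels give no sex, age, strain or Cre driver. They do not say that each library is 1 animal, so the spread behind every p-value may be partly technical. Non-parenchymal and blood-derived cells of ACSS2-HKO liver are not the deleted cell type.

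Neutrophils are short-lived white blood cells that leave the bone marrow under the growth factor G-CSF, sensed by CSF3R, and enter tissue along chemokines sensed by CXCR2. Their granules are filled in order as the cell matures: azurophil granules first (myeloperoxidase, elastase), then specific granules (lactoferrin, cathelicidin, neutrophilic granule protein), then gelatinase granules (MMP9). Transcripts of early granule proteins are therefore mostly those of bone marrow precursors, while S100a8, S100a9, Cxcr2 and Csf3r transcripts persist in mature cells. Chronic ethanol feeding followed by a binge is a mouse model known for neutrophils in the liver.

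Start sites of both calprotectin genes and of Ngp and Ltf are shown here because these pairs had different patterns across libraries. Upstream sequence is where myeloid transcription factors are known to act. The sequences are from RefSeq (build GRCm38.p6), 250 bases before to 50 bases after the gene start, 5′ to 3′ on the gene's strand. Capitals mark the letters TTNNGCAA, a C/EBP-type core, and GAGGAA, a PU.1-type core, searched on both strands.
S100a8 promoter (chr3:90668821-90669120, + strand): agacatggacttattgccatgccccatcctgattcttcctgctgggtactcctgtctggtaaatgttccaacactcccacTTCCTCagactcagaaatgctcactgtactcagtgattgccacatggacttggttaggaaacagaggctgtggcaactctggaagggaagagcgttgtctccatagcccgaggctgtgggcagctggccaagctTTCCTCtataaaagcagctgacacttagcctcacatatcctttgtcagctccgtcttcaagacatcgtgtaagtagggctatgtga
S100a9 promoter (chr3:90695672-90695971, - strand): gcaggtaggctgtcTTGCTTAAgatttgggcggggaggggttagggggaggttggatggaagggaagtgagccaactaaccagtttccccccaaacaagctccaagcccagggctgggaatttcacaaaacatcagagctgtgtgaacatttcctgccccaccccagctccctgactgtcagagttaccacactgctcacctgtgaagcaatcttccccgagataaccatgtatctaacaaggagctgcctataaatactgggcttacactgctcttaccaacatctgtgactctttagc
Ngp promoter (chr9:110419558-110419857, + strand): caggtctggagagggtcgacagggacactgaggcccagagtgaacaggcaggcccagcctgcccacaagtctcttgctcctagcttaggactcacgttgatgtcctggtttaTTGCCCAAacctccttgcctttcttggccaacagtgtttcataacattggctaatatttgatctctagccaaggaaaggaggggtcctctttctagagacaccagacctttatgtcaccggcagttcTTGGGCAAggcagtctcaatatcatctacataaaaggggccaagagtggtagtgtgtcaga
Ltf promoter (chr9:111019042-111019341, + strand): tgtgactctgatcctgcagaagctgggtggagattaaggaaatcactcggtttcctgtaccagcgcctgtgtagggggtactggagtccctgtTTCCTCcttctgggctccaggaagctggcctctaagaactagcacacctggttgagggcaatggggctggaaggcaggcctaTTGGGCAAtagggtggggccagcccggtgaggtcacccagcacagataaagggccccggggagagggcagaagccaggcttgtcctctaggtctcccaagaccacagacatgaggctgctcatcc
A promoter was matched for 9 of the 10 genes. TTNNGCAA was in 5 of the 9 (S100a9, Retnlg, Ngp, Ltf and Mmp8) and in 10.8% of all 32851 promoters of that length. GAGGAA was in 5 of the 9 (S100a8, Cxcr2, Csf3r, Ltf and Mmp8) and in 28.3% of all promoters. The Csf3r window (chr4:126024409-126024708, + strand) lay downstream of that gene's start at 126023441, so its match is inside the gene's span. Camp, whose promoter is not printed and whose values were also highest in ACSS2-HKO replicate 3, had neither motif. In Ngp the C/EBP-type letters began 138 and 11 bases before the start, and in S100a8 the PU.1-type letters began 170 and 36 bases before it. The 2 motifs did not overlap in the sequences printed. A match is a description of letters and not evidence that a factor bound.

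Values are FPKM, the authors' fragments scaled by gene length and library size. The FPKM steps implied 35362997 to 39474527 fragments per ACSS2-HKO library and 33717125 to 38321306 per ACSS2-flox library, and whole fragment counts are given for many of the low values. In bulk liver, more cells of a type and more RNA per cell cannot be told apart. Acss2 itself averaged 44.9 ± 6.13 FPKM in ACSS2-HKO and 69.2 ± 16.1 FPKM in ACSS2-flox (SD, n = 3 each), and its value covers the whole gene in all liver cells. ACSS2-HKO replicate 3 stood apart in the results that follow, so values are also given without it.

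Most members read higher in ACSS2-HKO liver, with the highest values in replicate 3, and none passed the test across all genes. The median member's log2 fold change (ACSS2-HKO minus ACSS2-flox, on log2(FPKM + 1)) was 0.86, or 0.27 once ACSS2-HKO replicate 3 was left out. All genes had a median of 0.05 in both cases. Of the 10 members, 7 had every ACSS2-HKO library above every ACSS2-flox library, as did 11.3% of all genes, while 2.5% of all genes had every ACSS2-HKO library below. Those 7 were S100a8, S100a9, Retnlg, Cxcr2, Csf3r, Mmp8 and Mmp9, while Ngp, Camp and Ltf overlapped between genotypes. By limma with Benjamini-Hochberg adjustment over 16135 genes, 0 members passed an adjusted p of 0.05, against 0% of all genes higher and 0% lower. Before adjustment, limma put 3 of 10 members (S100a8, S100a9 and Retnlg) higher at p under 0.05, beside 5.68% of all genes higher and 1.31% lower. Leaving out ACSS2-HKO replicate 3 gave 6 of 10 members higher, beside 3.98% of all genes higher and 0.804% lower, again with 0 past adjustment. Leaving out ACSS2-flox replicate 1 as well, a library whose 6 endothelial markers summed to 0.303 of the ACSS2-flox mean, also gave 6 (4.77% of all genes higher, 2.87% lower). A pseudocount of 0.1 gave 5 (5.67% higher, 1.39% lower), as did voom on fragments (5.82% higher, 1.3% lower). All 10 members had a positive log2 fold change, as did 66.5% of all genes, and without ACSS2-HKO replicate 3 the count was 8 of 10, against 66.9% of all genes.

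**Figure D1:**
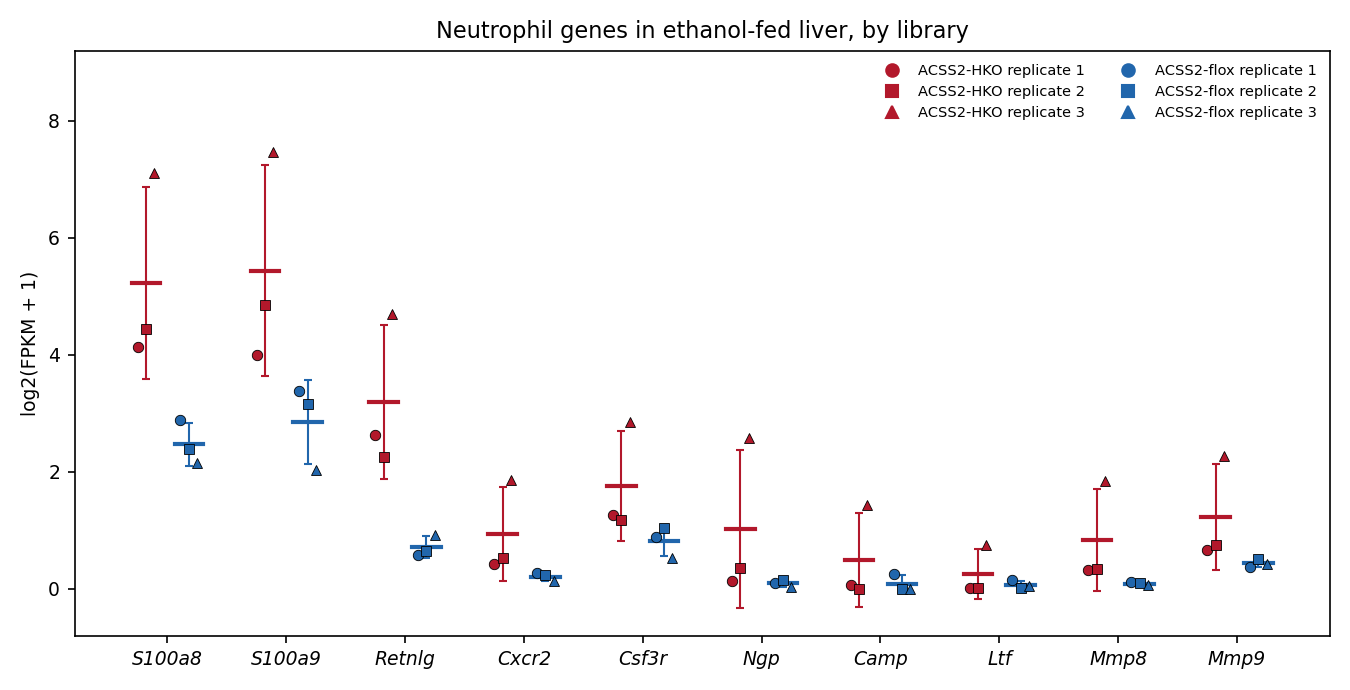
Level of each of the 10 genes in log2(FPKM + 1) (vertical axis) in the 3 ACSS2-HKO and the 3 ACSS2-flox libraries, with bars at the group mean and whiskers of 1 SD. The triangle of ACSS2-HKO replicate 3 is the highest point of every gene. For S100a8, S100a9, Retnlg, Cxcr2, Csf3r, Mmp8 and Mmp9 the other ACSS2-HKO libraries also lie above all ACSS2-flox libraries.

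S100a8 and S100a9 encode the subunits of calprotectin, the calcium-, zinc- and manganese-binding complex that makes up much of neutrophil cytosol. They lie on chromosome 3 (S100a8 at 90669071 to 90670034, plus strand; S100a9 at 90692630 to 90695721, minus strand) and have 3 exons each. S100a8 read 16.6, 20.7 and 138 FPKM in ACSS2-HKO replicates 1, 2 and 3, against 6.36, 4.25 and 3.46 FPKM in ACSS2-flox replicates 1, 2 and 3. Every ACSS2-HKO library was above every ACSS2-flox library, and replicate 3 was 7.37 times the mean of the other ACSS2-HKO libraries. The means were 58.3 ± 68.7 FPKM in ACSS2-HKO and 4.69 ± 1.496 FPKM in ACSS2-flox (SD, n = 3 each), a ratio of 12.4. The log2 fold change of S100a8 was 2.76 ± 0.79 (SE; limma adjusted p = 0.681; exact two-sided permutation p = 0.1, the smallest that 3 against 3 allows). Without ACSS2-HKO replicate 3 it was 1.81 ± 0.27 (limma adjusted p = 0.721). Counting error was small beside this spread: the 95% Poisson interval was 132 to 144 FPKM for the 2129 fragments of ACSS2-HKO replicate 3 and 2.59 to 4.54 FPKM for the 52 fragments of ACSS2-flox replicate 3.

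S100a9 read 15.003, 27.9 and 177 FPKM in ACSS2-HKO, against 9.40, 7.90 and 3.09 FPKM in ACSS2-flox. The groups did not overlap, although ACSS2-HKO replicate 1 lay only 1.597 times above ACSS2-flox replicate 1. On the log2 scale S100a9 differed by 2.59 ± 0.92 (limma adjusted p = 0.703; exact permutation p = 0.1), and 1.57 ± 0.49 without ACSS2-HKO replicate 3. Within a library both subunit genes kept to similar levels. S100a9 was 0.904, 1.35 and 1.28 times S100a8 in ACSS2-HKO and 1.48, 1.86 and 0.892 times in ACSS2-flox, and these ratios overlapped between genotypes. Together the pair made up 79.9% to 87.9% of the summed FPKM of the 10 members in ACSS2-HKO and 77.7% to 87.2% in ACSS2-flox.

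Retnlg encodes a resistin-like protein of neutrophils and bone marrow in mice (chromosome 16, 48872608 to 48874498, 4 exons). It read 5.21, 3.76 and 25.041 FPKM in ACSS2-HKO, against 0.488, 0.575 and 0.901 FPKM in ACSS2-flox. All ACSS2-HKO libraries were above all ACSS2-flox libraries, and the lowest ACSS2-HKO value was 4.17 times the highest ACSS2-flox value. Retnlg averaged 11.3 ± 11.9 FPKM in ACSS2-HKO and 0.655 ± 0.218 FPKM in ACSS2-flox (SD, n = 3 each), a ratio of 17.3. The ACSS2-flox values rested on 10, 13 and 21 fragments. Its log2 fold change of 2.48 ± 0.64 had the smallest p of the 10 members (limma p = 0.00810, adjusted p = 0.670; exact permutation p = 0.1), and it was 1.72 ± 0.22 without ACSS2-HKO replicate 3. Of its relatives in the resistin family, Retnla was listed at 0 in every ACSS2-HKO library and read 0, 0.199 and 0.338 FPKM in ACSS2-flox, from 0, 4 and 7 fragments.

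The receptor genes had lower levels and smaller log2 fold changes. Cxcr2, the receptor for CXCL1 and related chemokines (chromosome 1, 74153994 to 74161246), read 0.335, 0.446 and 2.65 FPKM in ACSS2-HKO, against 0.209, 0.172 and 0.0920 FPKM in ACSS2-flox. The groups did not overlap, and the values rested on 37, 50 and 327 fragments in ACSS2-HKO and 22, 20 and 11 in ACSS2-flox. The log2 fold change of Cxcr2 was 0.73 ± 0.38 (limma adjusted p = 0.716) and 0.26 ± 0.06 without ACSS2-HKO replicate 3. The pseudocount of 1 compresses so low a gene: the ratio of its means was 7.26, and limma voom on the fragments gave 2.32 ± 0.98 on the log2 scale (adjusted p = 0.698). Csf3r, the G-CSF receptor (chromosome 4, 126023441 to 126044975), read 1.40, 1.26 and 6.22 FPKM in ACSS2-HKO, against 0.850, 1.05 and 0.442 FPKM in ACSS2-flox. ACSS2-HKO replicate 2 was 1.19 times the highest ACSS2-flox library, the narrowest gap of the 7 members that did not overlap. The log2 fold change of Csf3r was 0.95 ± 0.47 (limma adjusted p = 0.716), and 0.40 ± 0.19 without ACSS2-HKO replicate 3.

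Relative to S100a8, the receptor genes read lower in every ACSS2-HKO library. Csf3r was 8.45%, 6.05% and 4.52% of the S100a8 FPKM in ACSS2-HKO, against 13.4%, 24.7% and 12.8% in ACSS2-flox. Cxcr2 was 2.02%, 2.15% and 1.93% of it in ACSS2-HKO, against 3.29%, 4.05% and 2.66% in ACSS2-flox. Neither ratio to S100a8 overlapped between genotypes (exact permutation p = 0.1 each, 0.35 after Benjamini-Hochberg adjustment over 7 such ratios). That separation depends on the divisor. Taken over S100a9 instead, ACSS2-HKO replicate 1 lay within the ACSS2-flox range for both receptor genes, and those ratios were not tested. For Retnlg the ratio to S100a8 overlapped, at 31.4%, 18.1% and 18.2% in ACSS2-HKO and 7.68%, 13.5% and 26.0% in ACSS2-flox (exact permutation p = 0.4, adjusted 0.6).

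The metalloproteinase genes were also low in level, Mmp8 below Mmp9 in every library. Mmp8, neutrophil collagenase (chromosome 9, 7558429 to 7568486, 10 exons), read 0.254, 0.273 and 2.59 FPKM in ACSS2-HKO, against 0.0846, 0.0658 and 0.0426 FPKM in ACSS2-flox. Its ACSS2-HKO libraries held 22, 24 and 251 fragments and its ACSS2-flox libraries 7, 6 and 4, and every ACSS2-HKO library lay above. The log2 fold change of Mmp8 was 0.75 ± 0.41 (limma adjusted p = 0.719), and limma voom on the fragments gave 3.13 ± 1.09 (adjusted p = 0.689). Without ACSS2-HKO replicate 3 it was 0.25 ± 0.03 on the log2(FPKM + 1) scale, with a limma p of 3.24e-04 and an adjusted p of 0.721. Mmp9, gelatinase B (chromosome 2, 164940326 to 164955850, 13 exons), read 0.585, 0.686 and 3.85 FPKM in ACSS2-HKO, against 0.295, 0.423 and 0.342 FPKM in ACSS2-flox. The groups did not overlap, and the log2 fold change of Mmp9 was 0.80 ± 0.43 (limma adjusted p = 0.719), or 0.27 ± 0.07 without ACSS2-HKO replicate 3. Mmp8 was 0.433, 0.397 and 0.673 times Mmp9 in ACSS2-HKO, against 0.287, 0.156 and 0.125 times in ACSS2-flox, a ratio that was not tested. As a share of S100a8, Mmp8 was 1.53%, 1.31% and 1.88% in ACSS2-HKO, against 1.33%, 1.55% and 1.23% in ACSS2-flox, with overlap (exact permutation p = 0.5, adjusted 0.6).

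Ngp, Camp and Ltf had another pattern, with values above a few fragments almost only in ACSS2-HKO replicate 3. It was not confined to these 3 low genes, nor common to all specific granule genes. Cd177, another low granule gene, had 1, 2 and 45 fragments in ACSS2-HKO and 8, 2 and 0 in ACSS2-flox. Ngp, neutrophilic granule protein (chromosome 9, 110419808 to 110423012, 4 exons), read 0.0974, 0.288 and 4.97 FPKM in ACSS2-HKO, against 0.0766, 0.116 and 0.0225 FPKM in ACSS2-flox. These values were 4, 12 and 228 fragments in ACSS2-HKO and 3, 5 and 1 in ACSS2-flox. ACSS2-HKO replicate 1 lay within the ACSS2-flox range, and replicate 3 was 25.8 times the mean of the other ACSS2-HKO libraries. The log2 fold change of Ngp was 0.93 ± 0.64 (limma adjusted p = 0.767; exact permutation p = 0.2) and 0.15 ± 0.08 without ACSS2-HKO replicate 3.

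Camp encodes the antimicrobial cathelicidin (chromosome 9, 109847377 to 109849456, 4 exons). It read 0.0472, 0 and 1.69 FPKM in ACSS2-HKO, against 0.198, 0 and 0 FPKM in ACSS2-flox. The fragments numbered 1, 0 and 40 in ACSS2-HKO and 4, 0 and 0 in ACSS2-flox, and a count of 0 allows up to 0.139 FPKM in ACSS2-HKO replicate 2 and up to 0.135 and 0.131 FPKM in ACSS2-flox replicates 2 and 3 by a floor of 3 fragments. The two-sided 95% Poisson intervals of the same counts reach 0.172 FPKM in ACSS2-HKO replicate 2 and 0.166 and 0.161 FPKM in ACSS2-flox replicates 2 and 3. Ltf, the iron-binding lactoferrin (chromosome 9, 111019292 to 111042766), read 0.0103, 0.0102 and 0.684 FPKM in ACSS2-HKO, against 0.108, 0.00980 and 0.0381 FPKM in ACSS2-flox. That is 1, 1 and 74 fragments in ACSS2-HKO and 10, 1 and 4 in ACSS2-flox. For both genes ACSS2-flox replicate 1 was above ACSS2-HKO replicates 1 and 2. The log2 fold changes were 0.41 ± 0.39 for Camp and 0.19 ± 0.20 for Ltf (limma adjusted p = 0.803 and 0.825; exact permutation p = 0.7 and 0.8). Without ACSS2-HKO replicate 3 their sign turned, to -0.05 for Camp and -0.06 for Ltf. Intervals and floors cover counting error only.

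**Figure D2:**
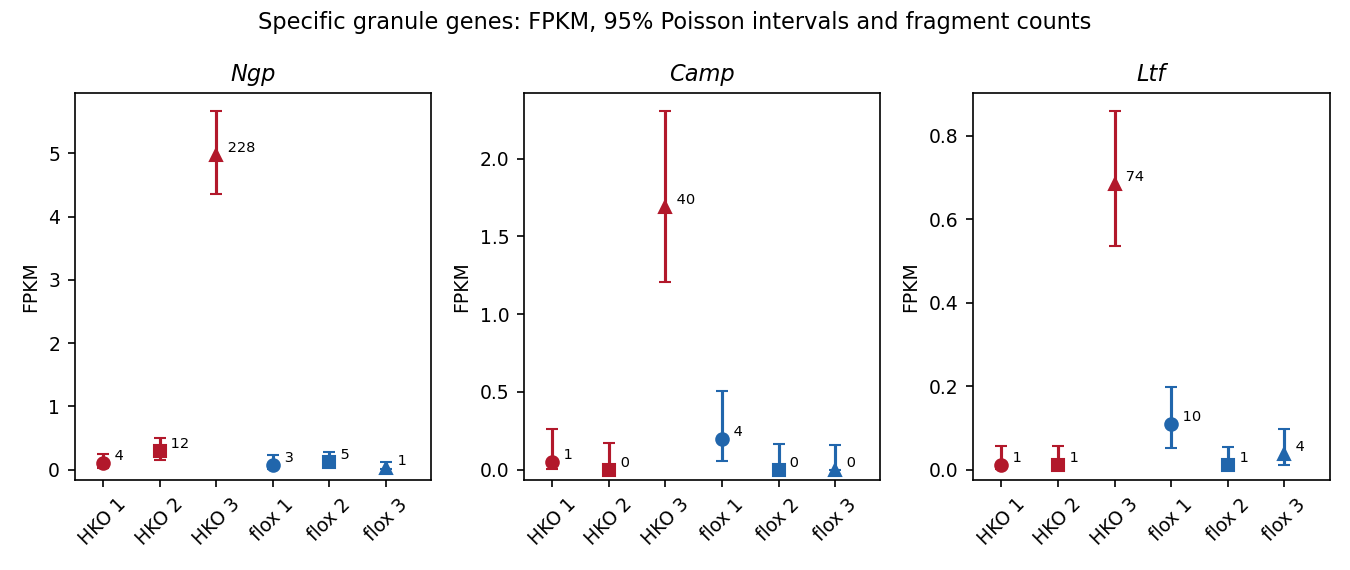
FPKM (vertical axis, one scale per gene) of Ngp, Camp and Ltf in each library, with 95% Poisson intervals and the fragment count beside each point. ACSS2-HKO replicate 3 holds 228, 40 and 74 fragments of the 3 genes, and no other library holds more than 12 of any.

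ACSS2-HKO replicate 3 was above the rest of its group in every member, by the largest multiples in Ngp, Camp and Ltf. It held the highest value of 10 of 10 members, as it did for 25.4% of all genes. Its level was over 4 times the mean of ACSS2-HKO replicates 1 and 2 for 10 of 10 members and for 3.32% of genes with a value there, a cutoff chosen after the values were seen. That multiple ran from 4.68 (Csf3r) to 9.85 (Mmp8) in the 7 members that did not overlap, and it was 25.8 for Ngp, 71.7 for Camp and 66.8 for Ltf, the last pair over 1 or 2 fragments. Because replicate 3 was the highest library of every member, leaving it out cannot change which members separate. ACSS2-HKO replicates 1 and 2 were thus both above every ACSS2-flox library in the same 7 members, and in 15.6% of all genes. In those replicates the mean was 6.85 times the ACSS2-flox mean for Retnlg, 4.09 for Mmp8, 3.98 for S100a8, 3.16 for S100a9, 2.48 for Cxcr2, 1.80 for Mmp9 and 1.70 for Csf3r.

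**Figure D3:**
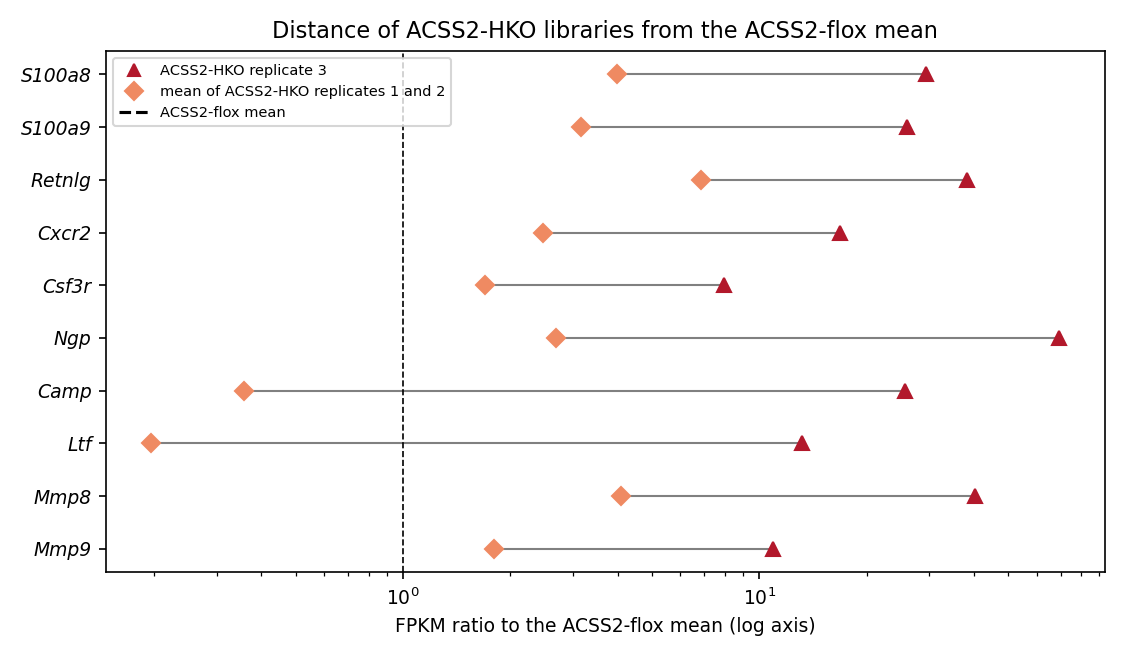
FPKM of ACSS2-HKO replicate 3 (triangles) and mean FPKM of ACSS2-HKO replicates 1 and 2 (diamonds) over the ACSS2-flox mean (dashed line, 1), on a log axis. Diamonds lie between 1.70 and 6.85 for the 7 members that did not overlap and at 2.69, 0.358 and 0.197 for Ngp, Camp and Ltf, whose diamonds rest on 16 or fewer fragments.

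As a share of S100a8, the summed FPKM of Ngp, Camp and Ltf was 0.934%, 1.44% and 5.34% in ACSS2-HKO, against 6.02%, 2.95% and 1.75% in ACSS2-flox. The shares overlapped between genotypes (exact permutation p = 0.4, adjusted 0.6), and they rested on 6, 13 and 342 fragments in ACSS2-HKO and 17, 6 and 5 in ACSS2-flox. ACSS2-HKO replicate 3 was thus high in these genes in amount. ACSS2-flox replicate 1 had a share of 6.02% beside its 5.34%, but from 17 fragments, too few to rank the shares. Over the 6 libraries the 45 pairs of members had a median Pearson r of 0.946 on log2(FPKM + 1), with a lowest value of 0.773. Over the 5 libraries without ACSS2-HKO replicate 3 the median was 0.769 and the lowest -0.742. The points share their libraries, and these correlations are descriptions.

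By order of level, S100a9 and S100a8 led in both genotypes, at 73.2 and 58.3 FPKM in ACSS2-HKO and 6.79 and 4.69 FPKM in ACSS2-flox, and these neighbours did not differ beyond their spread in either. Next came Retnlg (11.3 FPKM) and Csf3r (2.96) in ACSS2-HKO, and Csf3r (0.781) and Retnlg (0.655) in ACSS2-flox. In ACSS2-HKO, Ngp (1.79), Mmp9 (1.71), Cxcr2 (1.15) and Mmp8 (1.04) followed with overlapping values, and Camp (0.580) and Ltf (0.235) were lowest. The place of Ngp rested on replicate 3: over ACSS2-HKO replicates 1 and 2 it averaged 0.193 FPKM, below Mmp9 (0.636), Cxcr2 (0.391) and Mmp8 (0.263). In ACSS2-flox, Mmp9 (0.353) and Cxcr2 (0.158) were followed by Ngp, Camp, Mmp8 and Ltf at 0.0716 FPKM or less. Averaged across libraries, 5 of the 10 members reached 1 FPKM (S100a8, S100a9, Retnlg, Csf3r and Mmp9), and the last 3 of these had an ACSS2-flox mean below it.

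Other neutrophil genes were read beside the members. Ly6g, the surface marker that defines mouse neutrophils, had 1, 7 and 40 fragments in ACSS2-HKO and 0 in each ACSS2-flox library. Of 16 other specific and gelatinase granule genes, 0 passed adjusted limma in either direction, 16 were positive and 9 had non-overlapping higher values (of all genes, 66.5% were positive and 11.3% were higher without overlap), with a median log2 fold change of 0.74 beside one of 0.33 without ACSS2-HKO replicate 3. Lcn2, which encodes lipocalin 2 and is also made by hepatocytes in the acute phase, read 403, 222 and 6099 FPKM in ACSS2-HKO, against 45.9, 36.7 and 13.6 FPKM in ACSS2-flox. No library overlapped, and its log2 fold change was 4.79 ± 1.27 (limma adjusted p = 0.670), with 3.34 left without ACSS2-HKO replicate 3. Ncf1, a cytosolic subunit of the phagocyte NADPH oxidase that macrophages also express, differed by 0.88 ± 0.37 on the log2 scale, with an adjusted p of 0.709 by limma. Of 22 other mature neutrophil genes, 0 passed in either direction, 22 were positive (66.5% of all genes) and 8 had non-overlapping higher values (11.3% of all genes), with a median of 0.49, or 0.21 without ACSS2-HKO replicate 3. Fpr1, the formyl peptide receptor gene, read 6.99, 7.18 and 19.5 FPKM in ACSS2-HKO, against 4.06, 6.44 and 6.17 FPKM in ACSS2-flox.

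Azurophil granule and early granulocyte genes, which mark precursors, overlapped between genotypes. Of 7 such genes, 0 passed in either direction and 7 had fold changes above 0, as did 66.5% of all genes. Their median was 0.08 on the log2 scale, beside 0.05 for all genes. Only 2 of the 7 averaged 1 FPKM or more, and the pseudocount of 1 compresses lower genes, so that median says little. The highest value was in ACSS2-HKO replicate 3 for 5 of the 7, as for 25.4% of all genes. Mpo, myeloperoxidase, had 0, 1 and 6 fragments in ACSS2-HKO and 0 in each ACSS2-flox library. Elane, neutrophil elastase, had 10, 0 and 14 fragments in ACSS2-HKO and 5, 0 and 1 in ACSS2-flox. Prtn3, proteinase 3, read 0.553, 2.41 and 8.13 FPKM in ACSS2-HKO, against 0.854, 0 and 0 FPKM in ACSS2-flox, with overlap between the groups. These were 19, 84 and 312 fragments in ACSS2-HKO and 28, 0 and 0 in ACSS2-flox.

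Genes of neutrophil recruitment were read beside the receptors. Cxcl1, a CXCR2 ligand that hepatocytes and other liver cells release, read 8.20, 10.7 and 87.6 FPKM in ACSS2-HKO, against 2.27, 3.24 and 1.69 FPKM in ACSS2-flox. The groups did not overlap, and the log2 fold change was 2.67 ± 0.86 (limma adjusted p = 0.691), or 1.64 without ACSS2-HKO replicate 3. Cxcl5, another ligand, read 0.205, 0.420 and 6.06 FPKM in ACSS2-HKO and 0.143, 0 and 0 FPKM in ACSS2-flox, from 12, 25 and 396 fragments in ACSS2-HKO and 8, 0 and 0 in ACSS2-flox. Of 5 CXCR2 ligands 0 passed in either direction, 3 were positive (66.5% of all genes) and 2 had non-overlapping higher values (11.3% of all genes). Csf3, the gene of G-CSF, had 8, 0 and 1 fragments in ACSS2-HKO and 1, 1 and 0 in ACSS2-flox. Of 6 granulopoiesis ligands 0 passed and 6 were positive (66.5% of all genes), with a median of 0.06 beside 0.05 for all genes. Only 1 of the 6 averaged 1 FPKM or more, so this median is compressed too. Of 9 adhesion genes 0 passed, 9 were positive (66.5% of all genes) and 3 had non-overlapping higher values (11.3% of all genes). Icam1, the endothelial ligand of neutrophil integrins, read 12.1, 10.4 and 37.2 FPKM in ACSS2-HKO, against 5.72, 8.24 and 7.31 FPKM in ACSS2-flox.

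Genes tied to what the members' proteins do were also read. Of 7 calprotectin receptors and partners 0 passed, 7 were positive (66.5% of all genes) and 4 had non-overlapping higher values (11.3% of all genes). Cd36, the scavenger receptor gene that hepatocytes express too, read 74.3, 55.2 and 53.4 FPKM in ACSS2-HKO, against 23.0, 29.2 and 32.7 FPKM in ACSS2-flox, with its highest value outside replicate 3. Of 5 metalloproteinase inhibitors 0 passed in either direction and 2 were positive (66.5% of all genes), with a median of -0.01. Of these 5, 1 (Timp1) had non-overlapping higher values (11.3% of all genes). Timp2, with a log2 fold change of 0.41 ± 0.25, had an adjusted p of 0.740 by limma. Of 13 other metalloproteinases 0 passed, 11 were positive (66.5% of all genes) and 5 had non-overlapping higher values (11.3% of all genes). Mmp14, the membrane-type enzyme gene, read 22.0, 23.5 and 23.5 FPKM in ACSS2-HKO, against 14.3, 17.0 and 11.2 FPKM in ACSS2-flox, a pattern without the excess in replicate 3. Of 10 other S100 genes 0 passed, 8 were positive, and 2 were higher and 1 lower without overlap, beside 66.5%, 11.3% and 2.5% of all genes. S100a11 and S100a6 had log2 fold changes of 0.99 ± 0.37 and 1.04 ± 0.46 (limma adjusted p = 0.703 and 0.709).

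Markers of some other cells were also highest in ACSS2-HKO replicate 3. Set over the ACSS2-flox mean, the summed FPKM of 12 Kupffer cell and macrophage markers was 1.53, 1.43 and 3.53 in ACSS2-HKO and 0.775 to 1.20 in ACSS2-flox. That of 7 monocyte markers was 1.20, 1.32 and 5.797 in ACSS2-HKO and 0.842 to 1.31 in ACSS2-flox. For the 11 neutrophil markers, the 10 members and Ly6g, it was 2.89, 4.06 and 26.5 in ACSS2-HKO and 0.616 to 1.32 in ACSS2-flox. T cell and NK cell markers reached 2.29 and 2.74 in ACSS2-HKO replicate 3, with the other ACSS2-HKO libraries within or below the ACSS2-flox range of each. Erythroid markers were 0.591, 0.580 and 0.779 in ACSS2-HKO and 0.582 to 1.59 in ACSS2-flox, and 0 of 7 were positive (66.5% of all genes). Hepatocyte markers were 0.835, 0.773 and 0.709 in ACSS2-HKO and 0.831 to 1.29 in ACSS2-flox. The part of these cells in the members' values was not tested. In the cell type lists 0 genes passed adjusted limma. Lcn2 alone was 90.8% of the summed FPKM of the other specific and gelatinase granule genes in ACSS2-HKO replicate 3. Without it, relative to ACSS2-flox, their sum stood at 1.21, 1.34 and 3.52 in ACSS2-HKO and 0.704 to 1.22 in ACSS2-flox. Cxcl1 was 92.8% of the CXCR2 ligand sum there, and without it the sum was 1.21, 1.11 and 9.05 in ACSS2-HKO and 0.418 to 1.94 in ACSS2-flox. Both sums without their leading gene were chosen after seeing the data.

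**Figure D4:**
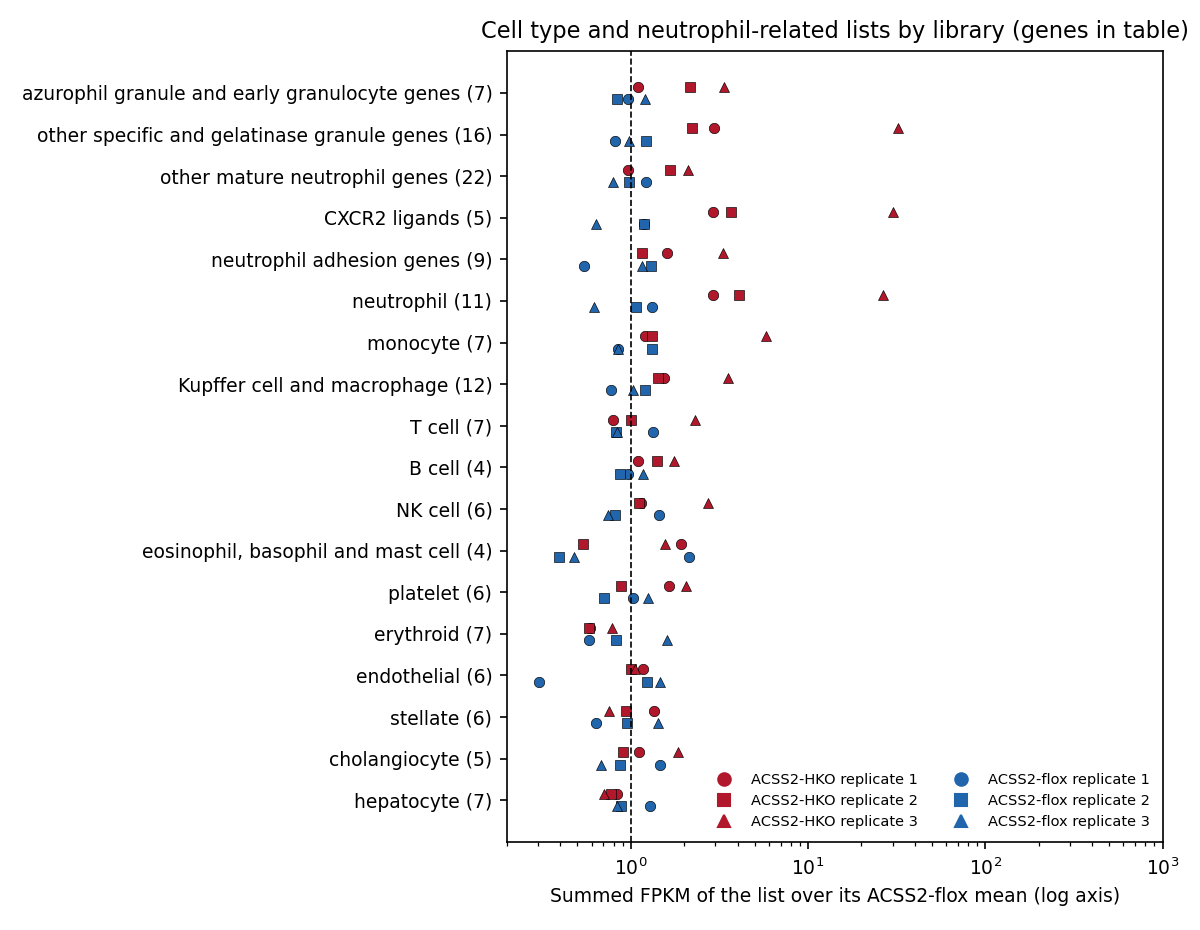
Summed FPKM of each list over its mean in the ACSS2-flox libraries (log axis) for every library, with the number of genes in the table in brackets. In ACSS2-HKO replicate 3 the neutrophil list stands at 26.5, the monocyte list at 5.797 and the erythroid list at 0.779, and the CXCR2 ligands, which include Cxcl1, stand at 30.0 and the other specific and gelatinase granule genes, which include Lcn2, at 32.3, values that fall to 9.05 without Cxcl1 and 3.52 without Lcn2.

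The genes most like the members were sought among 9813 other genes averaging 1 FPKM or more, by Pearson r over the 6 libraries with the mean of the members' standardised log2 values. Among the top 8 were Dok2, Cfp, Napsa, Cxcl5, Fxyd5, Chil1 and Ncf4, with r between 0.993 and 0.996, and 17 genes had an r over 0.99. Some met the level filter only through ACSS2-HKO replicate 3. Cxcl5 read 6.06 FPKM there and 0.420 or less elsewhere, and Chil1 9.10 there and 0.752 or less elsewhere. Cfp, properdin of the alternative complement pathway, read 40.8, 40.6 and 98.2 FPKM in ACSS2-HKO, against 32.9, 31.9 and 27.9 FPKM in ACSS2-flox. The members' profile is itself highest in ACSS2-HKO replicate 3, so the choice by r fixes that these genes are too, and the points share their libraries.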

How the data were processed

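RNA of whole liver was sequenced from 3 ACSS2-HKO and 3 ACSS2-flox libraries, with genotype labels setting the groups. The authors deposited a table of FPKM values, 1 per gene and library. The submitters' processing notes name the build mm10; aligner, counting method and annotation were not given in those notes, labels or headers. How fragments shared by similar genes were divided is unknown. An FPKM value is a share of its library.

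A search for whole gene lengths and library totals turned the FPKM values into whole fragment counts (within 0.01) for 16120 of 16135 genes. Tests used limma 3.58.1 in R 4.3.3 (eBayes with trend) on log2(FPKM + 1), two-sided, adjusted by Benjamini-Hochberg over all 16135 genes with no filter on level, since a filter would keep a rare-cell gene through its high group alone. The fit was tested on simulated counts, at the spread observed gene by gene and at a low spread. Its pass condition covered the low-spread run alone. That condition therefore does not show how often a real difference would pass at the spread of these libraries. The run at the observed spread recorded that share, which is not given here. Single values had an exact permutation test over 20 arrangements in scipy 1.17.1. A positive log2 fold change means higher in ACSS2-HKO, and its ± is a standard error. Coordinates are RefSeq's on GRCm38.p6, the assembly that mm10 names, and exon counts GENCODE's.

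Members and lists were chosen with earlier results of these data known. The text names all members, up to 3 genes of smallest p per list with a mean of at least 1 FPKM, the 8 genes most like the members, and Acss2, except for genes that are not reported here. Retnla, Ly6g, Mpo, Elane and Csf3 were added for their roles, and Cd177 for its pattern, after their values were seen. Alternatives were other pseudocounts, filters, scalings and variance models, voom on fragments, the replicate number as a block, and libraries left out.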

Additional observations from a re-analysis of the deposited data

How the results depend on the processing

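In the 19 alternatives run, 0 genes, 0 members and 0 genes of the related lists passed the adjusted threshold by limma or voom. The members' median log2 fold change was 0.86. It was 1.95 with a pseudocount of 0.1 FPKM, 2.48 with a filter at a mean of 1 FPKM (5 members left), 2.59 with a filter at 5 FPKM (3 members left) and 2.56 with voom on the recovered fragments. The filtered medians have a sign fixed in part by the filter, since Retnlg, Csf3r and Mmp9 reach 1 FPKM, and S100a8 and Retnlg 5 FPKM, only through ACSS2-HKO; the other 2 settings compress low genes less. It was 0.32 with a pseudocount of 5 FPKM, 0.53 with array weights and 0.28 with ACSS2-flox replicate 1 and ACSS2-HKO replicate 3 both left out. With single libraries left out it ran from 0.27 (without ACSS2-HKO replicate 3) to 1.14. The fold changes that turned sign were those of Camp and Ltf without ACSS2-HKO replicate 3 (-0.054 and -0.057) and of Ltf without both libraries (-0.019); with single libraries left out Camp ran from -0.054 to 0.66 and Ltf from -0.057 to 0.31. Genes at an unadjusted p under 0.05 numbered 917 higher and 212 lower, 524 and 540 with quantile normalization, 675 and 365 with median-ratio scaling, 1108 and 440 with array weights, 692 and 583 without ACSS2-flox replicate 1, 633 and 128 without ACSS2-HKO replicate 3, 751 and 453 without both, 598 and 147 with the filter at 1 FPKM, and 311 and 119 at 5 FPKM. Members at that level numbered 3 as reported, 5 with a pseudocount of 0.1 and with voom, 6 without ACSS2-HKO replicate 3 or both libraries, and 2 to 3 elsewhere. With the replicate number as a block the median was 0.86 and 0 members passed. Same-numbered libraries deviated with correlations of 0.0132, 0.0032 and -0.0627. The labels do not say what the replicate numbers stand for, and these correlations do not settle it. Depth limits Ngp, Camp and Ltf, which outside ACSS2-HKO replicate 3 rest on 12 fragments or fewer.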

Other observations

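A few genes outside the naming rule were looked at after their values were seen. Cd14, the co-receptor of TLR4 for endotoxin, read 7.13, 3.91 and 76.3 FPKM in ACSS2-HKO, against 2.04, 4.89 and 3.11 FPKM in ACSS2-flox, with ACSS2-HKO replicate 2 inside the ACSS2-flox range. Timp1, the main inhibitor of MMP9, read 1.95, 0.597 and 2.29 FPKM in ACSS2-HKO, against 0.0669, 0.152 and 0.295 FPKM in ACSS2-flox, where it had 2, 5 and 10 fragments. Every ACSS2-HKO library of Timp1 was above every ACSS2-flox library, and its highest values, in replicates 1 and 3, were close to each other. Itgam, the integrin CD11b of neutrophils and monocytes, read 0.471, 0.642 and 3.26 FPKM in ACSS2-HKO, against 0.431, 0.362 and 0.457 FPKM in ACSS2-flox. None of the 3 passed limma over all genes, and no cause of their patterns was examined.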
